A study of Mus musculus with 6 samples.

Results

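The genes described here are 10 genes of the disease-associated microglia programme (*Trem2*, *Tyrobp*, *Itgax*, *Clec7a*, *Cd9*, *Cd63*, *Lpl*, *Spp1*, *Lgals3bp* and *Cst7*), chosen by name. Of the 10 genes, 9 had a row in the table of 31053 genes, and *Clec7a* was not analysed here. The libraries came from the cerebellum of WT mice and of KIKO mice, a model of Friedreich's ataxia that combines a knocked-out and a knocked-in allele. The comparison was between 2 WT libraries (replicates 1 and 2) and 3 KIKO libraries, and WT replicate 3 was not analysed here. The labels name the cerebellum, the genotype and polyA RNA for both groups, and neither names a treatment, an age or a sex. The study's methods describe littermate C57BL/6 controls and the magnetic sorting of cerebellar CD45+/CD11b+ cells, whereas the labels name no sorting, so that cells and tissue cannot be told apart from the labels.

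Microglia are the resident macrophages of the brain. Around amyloid plaques, in demyelination and in other settings of damage, they are known to lower their homeostatic genes and to raise a shared set of genes for lipid handling, lysosomes and phagocytosis. TREM2 is a surface receptor for lipids and lipoproteins that signals through the adaptor TYROBP (DAP12) and the kinase SYK, and the later part of the programme, with *Itgax*, *Cst7*, *Lpl*, *Clec7a* and *Spp1*, is known to depend on it. Several members are not restricted to microglia: *Cd9* is also a gene of oligodendrocytes, *Cd63* is found in most cells, *Lpl* and *Spp1* are also found in other cells of the brain and its borders, and *Itgax* (CD11c) also marks dendritic cells.

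The sequences before the starts of 4 members are shown, with *Trem2* as the receptor of the programme, *Itgax* as a member whose groups did not overlap, and *Spp1* and *Cst7* as members that were several-fold higher in KIKO replicate 2 than in the other KIKO libraries. RefSeq (GRCm38.p6) gave upstream sequence for 7 of the 9 genes, and the 150 bases before the start are printed where that start lay within 10 bases of the start of the gene in GENCODE. They run 5′ to 3′ on the plus strand, which is the coding strand of these 4 genes, at chr17:48346251-48346400, chr7:128129400-128129549, chr5:104434961-104435110 and chr2:150570265-150570414. Capitals mark a match to GAGGAA, a box of the kind bound by the myeloid factor PU.1, or to TGACTCA, the AP-1 element, on either strand.
Trem2: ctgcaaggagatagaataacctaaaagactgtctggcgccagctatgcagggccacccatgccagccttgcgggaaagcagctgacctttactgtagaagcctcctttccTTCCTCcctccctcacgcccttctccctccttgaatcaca
Itgax: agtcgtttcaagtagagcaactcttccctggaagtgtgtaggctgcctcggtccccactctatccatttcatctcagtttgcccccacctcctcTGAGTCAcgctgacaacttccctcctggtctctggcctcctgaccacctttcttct
Spp1: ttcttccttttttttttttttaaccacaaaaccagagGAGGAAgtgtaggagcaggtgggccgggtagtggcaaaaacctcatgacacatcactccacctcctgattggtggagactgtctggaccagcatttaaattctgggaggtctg
Cst7: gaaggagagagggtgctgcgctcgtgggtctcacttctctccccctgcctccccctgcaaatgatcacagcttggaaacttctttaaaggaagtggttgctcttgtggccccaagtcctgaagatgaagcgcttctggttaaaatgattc

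In the 250 bases before 8 RefSeq starts of these 7 genes, GAGGAA was found at 3 starts (*Trem2*, *Spp1* and *Cd63*), and 23.3% of all 32851 promoters held it. It began 40 bases before the start of *Trem2* and 113 bases before that of *Spp1*. TGACTCA was found at the start of *Itgax* alone, beginning 56 bases before it, and in 4.46% of all promoters. The E-box CACGTG was found at none of the 8 starts and in 6.02% of all promoters. A match describes the sequence only.

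The WT libraries held 1044760 and 1351339 counts, and KIKO replicates 1, 2 and 3 held 1281661, 1241997 and 1013107. Levels are given as normalized CPM, each gene's counts relative to the library total (CPM) after scaling of the libraries by TMM, a method that sets most genes equal between libraries. A signal of 3 counts corresponded to between 2.28 and 3.04 normalized CPM, which covers counting error only. The markers of the sort were present, with *Itgam* (CD11b) between 55.8 and 213.3 and *Ptprc* (CD45) between 62.3 and 115.3 normalized CPM. *Snap25*, a gene of neurons, lay between 576.5 and 750.0 normalized CPM and *Ttr*, a gene of the choroid plexus, between 6550 and 13950. Each value below is therefore that of a mixture of cells, in which fewer cells of a type and less RNA per cell cannot be told apart.

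KIKO replicate 2 stood apart from the other libraries. Across the 10889 genes tested, which are not independent replicates, the r of its log2 CPM with each other library was 0.636 to 0.711, whereas r was 0.868 to 0.919 within the other 4. It held the highest value of 33.9% of all genes tested and of 7 of the 9 members. For this reason, the members and the counts of most gene lists are given with and without it.

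None of the 9 members passed the thresholds of the study, which asked for more than 0.75 on the log2 scale in either direction and P under 0.05. The p was taken here before adjustment, from the quasi-likelihood test of edgeR. Of all genes tested, 0.716% passed in the higher and 0.487% in the lower direction. At an unadjusted p under 0.05 alone, the count of members was also 0 in edgeR, in DESeq2's Wald test and in limma with trend, beside 1.2% of all genes in edgeR. For every member, the adjusted p (Benjamini-Hochberg, over all genes tested) was 1 in edgeR. The median log2 fold change of the 9 members was −0.01, beside 0.02 over all genes tested. The mean of the KIKO libraries was above that of the WT libraries for 3 members (*Cd9*, *Spp1* and *Lgals3bp*) and below it for 6. In all 3 of the former, KIKO replicate 2 was the highest library.

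**Figure D1:**
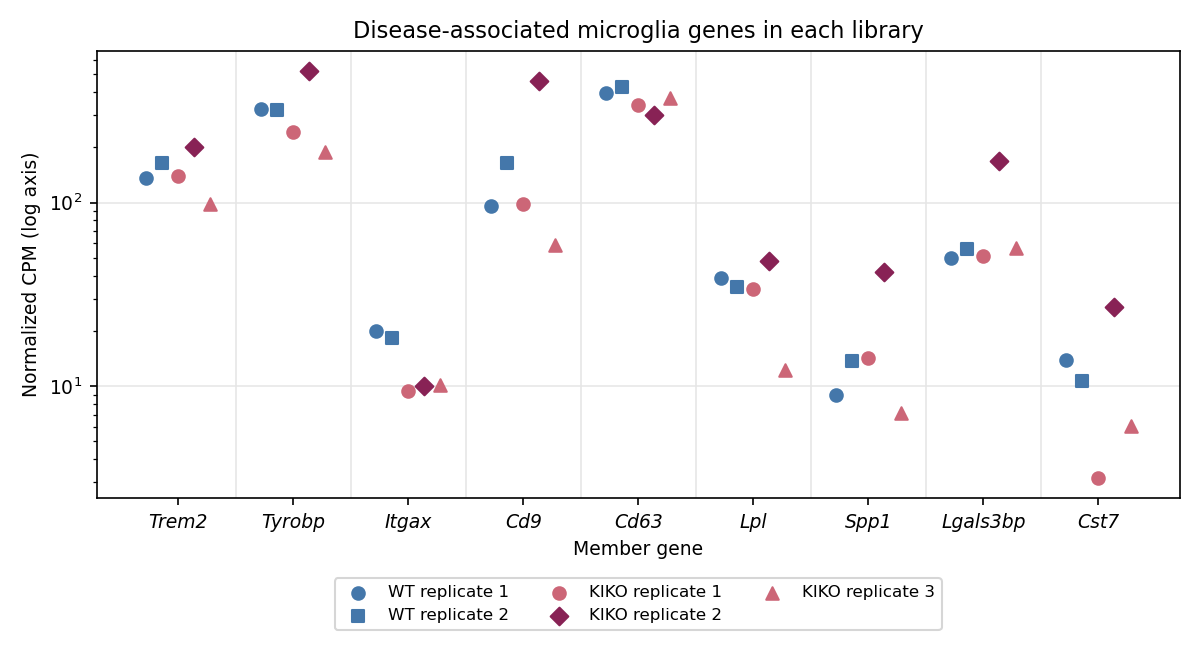
Normalized CPM (log axis) of the 9 member genes in each of the 5 libraries, 1 point per library, blue for WT and red or purple for KIKO. KIKO replicate 2 (diamonds) holds the highest value of 7 genes, with *Cd9* at 462.1, and all KIKO libraries lie below both WT libraries for *Itgax* and *Cd63*.

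*Trem2* (ENSMUSG00000023992, chromosome 17, 48346401 to 48354147, GRCm38, plus strand) had 136.5 and 164.6 normalized CPM in WT replicates 1 and 2, and 140.4, 200.9 and 98.4 in KIKO replicates 1, 2 and 3. The KIKO libraries spread on both sides of the WT libraries, and the groups overlapped. WT libraries averaged 150.5 ± 19.9 (SD, n = 2) and KIKO libraries 146.6 ± 51.5 (SD, n = 3). Between the groups, the log2 fold change was −0.04 with a standard error of 0.41, and without KIKO replicate 2 it was −0.34 with a standard error of 0.28.

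*Tyrobp* (ENSMUSG00000030579, chromosome 7, 30413760 to 30417585), whose product carries the signalling motif that TREM2 lacks, had 321.7 and 320.8 normalized CPM in the WT libraries and 243.7, 520.8 and 189.8 in KIKO replicates 1, 2 and 3. Both WT libraries were almost equal, KIKO replicates 1 and 3 were below them and KIKO replicate 2 was above them. With all libraries, the log2 fold change was −0.01 (standard error 0.49), so that the opposite deviations of the KIKO libraries cancelled in the mean. Without KIKO replicate 2, it was −0.57 (standard error 0.25), with an unadjusted p of 0.0329 and an adjusted p of 0.556 in edgeR, and below the fold threshold. Receptor and adaptor thus had the same order of the KIKO libraries, with replicate 2 highest and replicate 3 lowest.

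The 3 genes whose centred log2 CPM over the 5 libraries lay nearest to *Trem2*, among 4000 genes of at least 50 normalized CPM on average, were *Sun2*, *Dvl1* and *Khdc4*, with a root mean square distance of 0.034, 0.076 and 0.079 on the log2 scale. For *Tyrobp* they were *Coro2b*, *Ppm1h* and *Etf1*, at 0.060, 0.070 and 0.072. With 5 libraries, genes this near were found for both among many candidates, and neither set contained a gene of the lists used here.

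*Itgax* (ENSMUSG00000030789, chromosome 7, 128129547 to 128150657), the integrin chain CD11c, was among the least abundant members. With all 5 libraries, TMM scaling and no replicate block, it had the largest fold between the groups in edgeR. *Spp1* was larger with the replicate block (1.165), and *Cst7* without KIKO replicate 2 (−1.42). *Itgax* had 19.9 and 18.2 normalized CPM in WT replicates 1 and 2, from 20 and 24 counts. In KIKO replicates 1, 2 and 3 it had 9.46, 10.1 and 10.2 normalized CPM, from 12, 13 and 10 counts. All KIKO libraries were below both WT libraries, and KIKO replicate 2 did not stand out. WT libraries averaged 19.1 ± 1.22 (SD, n = 2) and KIKO libraries 9.89 ± 0.369 (SD, n = 3). At 10 to 24 counts per library, counting error alone is larger than either SD. For *Itgax*, the log2 fold change was −0.94 (standard error 0.61), with an unadjusted p of 0.16 and an adjusted p of 1 in edgeR. The fold was past 0.75, but the p missed the threshold. Among genes with at least 10 counts in every library, the same fold had a standard error of 0.37 and an unadjusted p of 0.0298 (adjusted p of 1 in edgeR), and *Itgax* was then the only member past the thresholds.

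*Cd63* (ENSMUSG00000025351, chromosome 10, 128900989 to 128912822), a tetraspanin of late endosomes and lysosomes, had 397.4 and 424.7 normalized CPM in the WT libraries and 339.9, 302.1 and 372.4 in KIKO replicates 1, 2 and 3. Here too, all KIKO libraries were below both WT libraries, and KIKO replicate 2 was the lowest. The difference was small, with a log2 fold change of −0.28 (standard error 0.35, unadjusted p of 0.441 and adjusted p of 1 in edgeR). *Itgax* and *Cd63* were the 2 of 9 members with every KIKO library below every WT library, as were 8.51% of all genes tested. No member had every KIKO library above every WT library, compared with 8.2% of all genes tested.

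*Cd9* (ENSMUSG00000030342, chromosome 6, 125460266 to 125494791, minus strand), the other tetraspanin, was among the members that varied most between libraries, with *Cst7*. It had 95.6 and 164.6 normalized CPM in the WT libraries and 97.8, 462.1 and 58.9 in KIKO replicates 1, 2 and 3. KIKO replicate 2 was 5.9-fold above the mean of the other KIKO libraries, and WT replicate 2 was the next highest. The log2 fold change was 0.66 (standard error 0.81) and changed sign to −0.73 (standard error 0.32, unadjusted p of 0.0282 and adjusted p of 0.55 in edgeR) without KIKO replicate 2, just inside the fold threshold. The exons of *Cd9* overlap the gene *Gm26728* on the opposite strand, and the strand setting of the counting is not given in the sources used here.

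Among the secreted members, *Lgals3bp* (ENSMUSG00000033880, chromosome 11, 118392751 to 118402092), a glycoprotein that binds galectins, had 49.8 and 56.1 normalized CPM in the WT libraries and 51.3, 167.7 and 56.8 in KIKO replicates 1, 2 and 3. Apart from KIKO replicate 2, the libraries lay close together. The log2 fold change of 0.80 (standard error 0.58, unadjusted p of 0.203 and adjusted p of 1 in edgeR) became 0.02 (standard error 0.34) without that library.

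*Spp1* (ENSMUSG00000029304, chromosome 5, 104435118 to 104441050), which encodes the matrix protein osteopontin, had 8.97 and 13.7 normalized CPM in the WT libraries and 14.2, 41.7 and 7.10 in KIKO replicates 1, 2 and 3. KIKO replicates 1 and 3 were at the level of the WT libraries. With all libraries it gave a log2 fold change of 0.89 (standard error 0.82), and −0.08 (standard error 0.70) without KIKO replicate 2. The exons of *Spp1* overlap those of *Gm42793* on the same strand, so that the counting could have assigned reads differently. *Lpl* (ENSMUSG00000015568, chromosome 8, 68880491 to 68907448), the lipase that releases fatty acids from lipoproteins, had 38.9 and 34.9 normalized CPM in the WT libraries and 33.9, 47.9 and 12.2 in KIKO replicates 1, 2 and 3. KIKO replicate 3 was the lowest library for *Lpl*, as for *Spp1*. The log2 fold change of *Lpl* was −0.22 (standard error 0.59), and −0.65 (standard error 0.46) without KIKO replicate 2.

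*Cst7* (ENSMUSG00000068129, chromosome 2, 150570415 to 150578944) encodes cystatin F, an inhibitor of lysosomal cysteine proteases. It had 14 counts in each WT library, or 13.9 and 10.6 normalized CPM. In KIKO replicates 1, 2 and 3 it had 4, 35 and 6 counts, or 3.15, 27.1 and 6.09 normalized CPM. KIKO replicate 2 was 5.85-fold above the mean of the other KIKO libraries, which were below both WT libraries. The log2 fold change of −0.005 (standard error 0.97) became −1.42 (standard error 0.81, unadjusted p of 0.0925 and adjusted p of 0.678 in edgeR) without KIKO replicate 2.

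**Figure D2:**
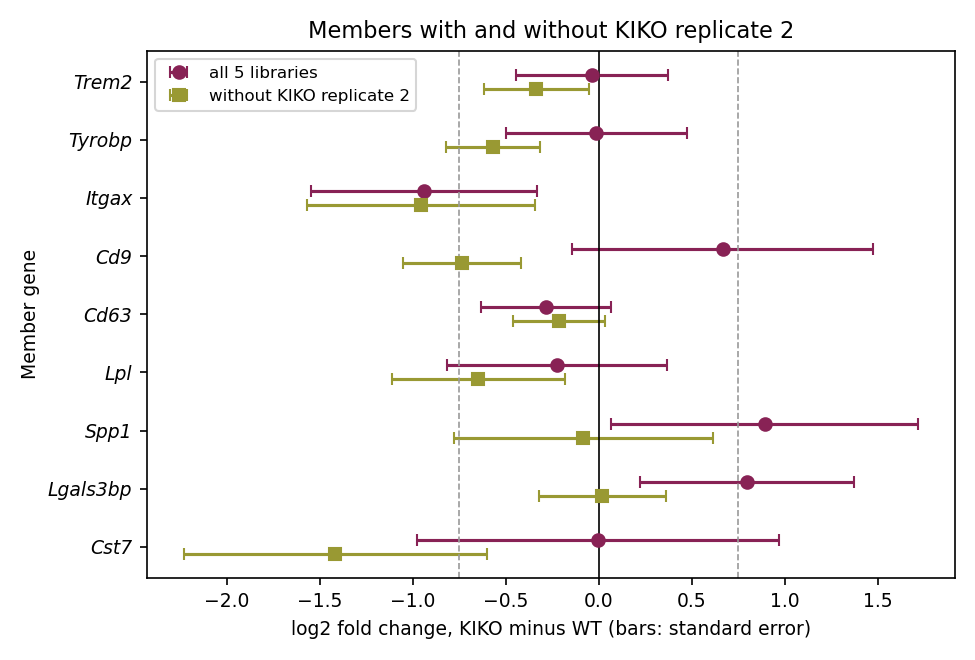
The log2 fold change of each member, KIKO minus WT, from edgeR with all 5 libraries (circles) and without KIKO replicate 2 (squares), with bars for 1 standard error and dashed lines at a log2 fold change of 0.75 in size. *Cd9* moves from 0.66 to −0.73, *Cst7* from −0.005 to −1.42, and *Itgax* and *Cd63* stay close to −0.94 and −0.28.

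Without KIKO replicate 2, 8 of the 9 members had a log2 fold change below 0, and their median was −0.57, compared with −0.01 over all 10373 genes then tested, of which 50.9% were below 0. None of the members passed the thresholds, beside 2.94% of all genes in the higher and 3.51% in the lower direction, and 2 members (*Tyrobp* and *Cd9*) had an unadjusted p under 0.05 in edgeR, beside 8.21% of all genes. In 5 members (*Tyrobp*, *Itgax*, *Cd63*, *Lpl* and *Cst7*), KIKO replicates 1 and 3 were both below both WT libraries, as were 19.2% of all genes. Other lists moved in the same fit. Of the 13 homeostatic microglia genes, 12 were below 0, with a median of −0.32, as were all 6 markers of the choroid plexus, with a median of −0.94, and 5 of 7 oligodendrocyte markers, with a median of −0.34. All 6 neuronal markers were above 0, with a median of 0.51. The part of the makeup of the libraries in the direction of the members was not tested. The signs of *Cd9* and *Spp1* turned when KIKO replicate 2 was left out. KIKO replicate 2 was left out because of its profile over all genes, and the direction of the members among the other libraries rests on 2 against 2 libraries.

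**Figure D3:**
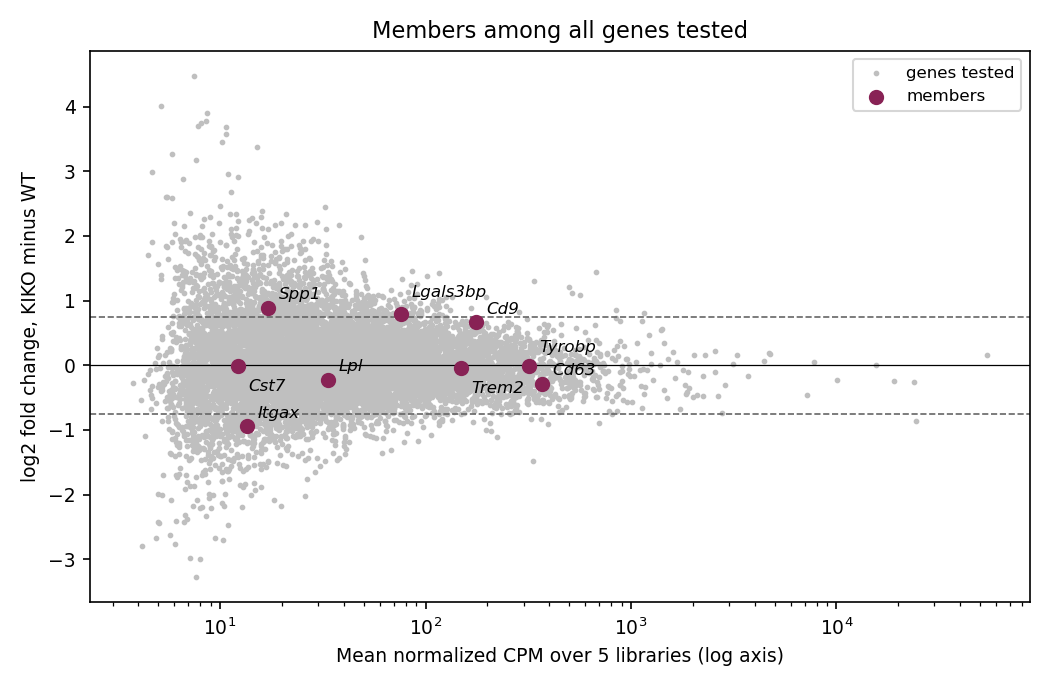
Mean normalized CPM over the 5 libraries (log axis) against the log2 fold change, KIKO minus WT, for the 10889 genes tested (grey) and the 9 members (purple), with dashed lines at a log2 fold change of 0.75 in size. *Spp1* (0.89), *Lgals3bp* (0.80) and *Itgax* (−0.94) lie past the dashed lines, and none of them had an unadjusted p under 0.05.

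Per kilobase of exon, *Tyrobp* was the most abundant member, with a median of 481 normalized CPM per kilobase over the 5 libraries and a range of 284.5 to 780.8, and it did not overlap the next. *Cd63* followed with a median of 101.1, *Cd9* with 47.8, *Trem2* with 28.4 and *Lgals3bp* with 19.7 normalized CPM per kilobase. The lowest medians were those of *Cst7* (10.8), *Spp1* (8.28), *Lpl* (3.33) and *Itgax* (2.11). From *Cd63* down to *Itgax*, each member overlapped the next in its range over the libraries. The order depends on the exon length, between 667 bases for *Tyrobp* and 10478 bases for *Lpl*. The study's methods and the labels name different library kits, and for reads from the 3′ end alone a level per kilobase would understate long genes.

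The members were next set beside 13 homeostatic microglia genes. Their summed level was 4531 and 5682 normalized CPM in WT replicates 1 and 2, and 3922, 10870 and 4656 in KIKO replicates 1, 2 and 3. KIKO replicate 2 was thus high in these genes as well, and held the highest value of 12 of the 13. *Csf1r*, the receptor for the growth factor on which microglia depend, was the most abundant of them by its mean, and was at 2667 normalized CPM in KIKO replicate 2. None of the 13 genes passed the thresholds with or without that library. Without it, *P2ry12*, a purinergic receptor of homeostatic microglia, had an unadjusted p of 0.0198 and an adjusted p of 0.532 in edgeR.

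For every 100 counts of the 13 homeostatic genes, the 9 members together had 23.9 and 21.3 counts in WT replicates 1 and 2, and 23.8, 16.4 and 17.4 in KIKO replicates 1, 2 and 3. By this measure, KIKO replicate 2 was the lowest library, and KIKO replicate 1 lay between the WT libraries. *Tyrobp* had 7.1 and 5.65 counts per 100 in WT and 6.21, 4.79 and 4.08 in KIKO mice. *Cd63* had 8.77 and 7.48 in WT and 8.67, 2.78 and 8.0 in KIKO mice, with KIKO replicate 2 far below the others. *Itgax* remained without overlap, at 0.44 and 0.32 in WT and 0.241, 0.0924 and 0.218 counts per 100 in KIKO mice. With the libraries scaled to these genes in place of TMM, the median log2 fold change over all genes was −0.08, compared with 0.02 under TMM, and that of the members was −0.33. None of the members passed the thresholds under this scaling.

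**Figure D4:**
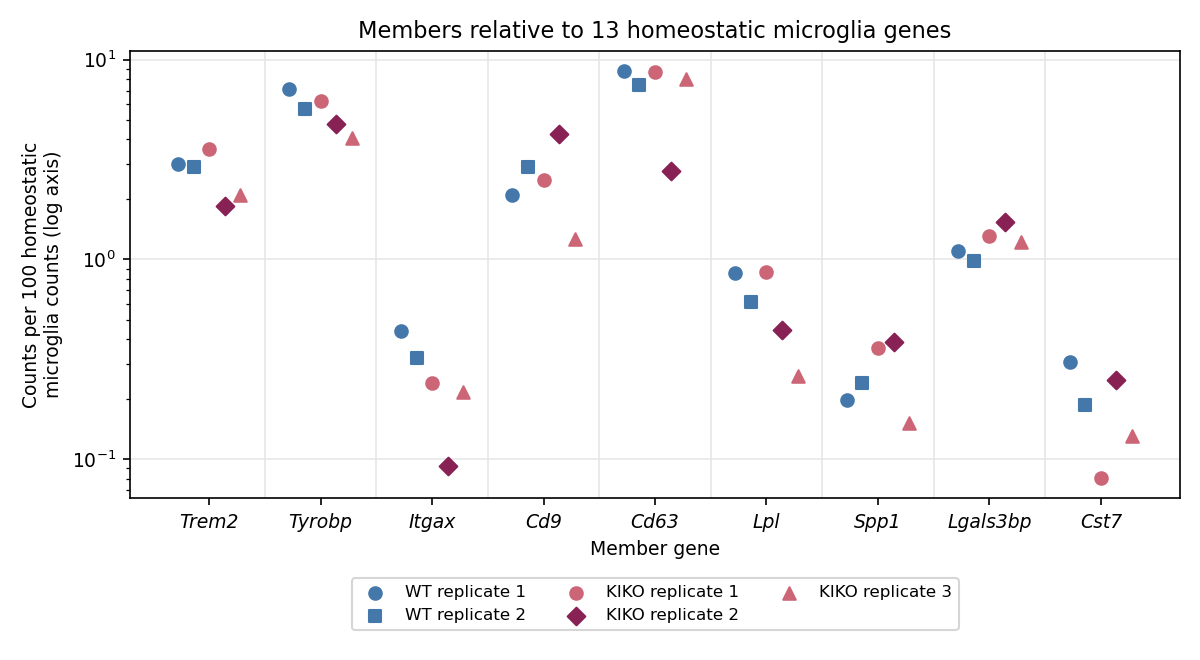
Counts of each member per 100 counts of 13 homeostatic microglia genes (log axis), 1 point per library, blue for WT and red or purple for KIKO. KIKO replicate 2 (diamonds) is the lowest library for *Trem2*, *Itgax* and *Cd63* and the highest for *Cd9*, *Spp1* and *Lgals3bp*.

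Markers of other cells moved with KIKO replicate 2 too. The 7 oligodendrocyte markers summed to 5226 and 11930 normalized CPM in WT replicates 1 and 2, and 4598, 19020 and 5906 in KIKO replicates 1, 2 and 3. All 7 were tested, with none past the thresholds with all libraries, and *Mbp*, which encodes a protein of myelin, was among the most abundant. WT replicate 2 and KIKO replicate 2 were the highest in this sum and in *Cd9*. *Mbp* was at 1265 and 4883 normalized CPM in WT and at 1055, 7456 and 1811 in KIKO mice. *Mbp* (log2 fold change −1.11) and *Mog* (−0.86), another gene of myelin, passed the thresholds in the lower direction without KIKO replicate 2. The part of oligodendrocyte RNA in the level of *Cd9* was not tested. The summed level of the 6 neuronal markers was 1535 normalized CPM in KIKO replicate 2 and 1979 in WT replicate 2, compared with 3169 to 3556 in the other libraries. KIKO replicate 2 was the lowest library for 3 of the 6 (*Snap25*, *Rbfox3* and *Syt1*). *Rbfox3*, a nuclear protein of neurons, was the most abundant of them, and none passed the thresholds with all libraries. *Syt1* (0.78), a protein of synaptic vesicles, and *Calb1* (1.37), a calcium-binding protein of Purkinje cells, passed in the higher direction without KIKO replicate 2.

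**Figure D5:**
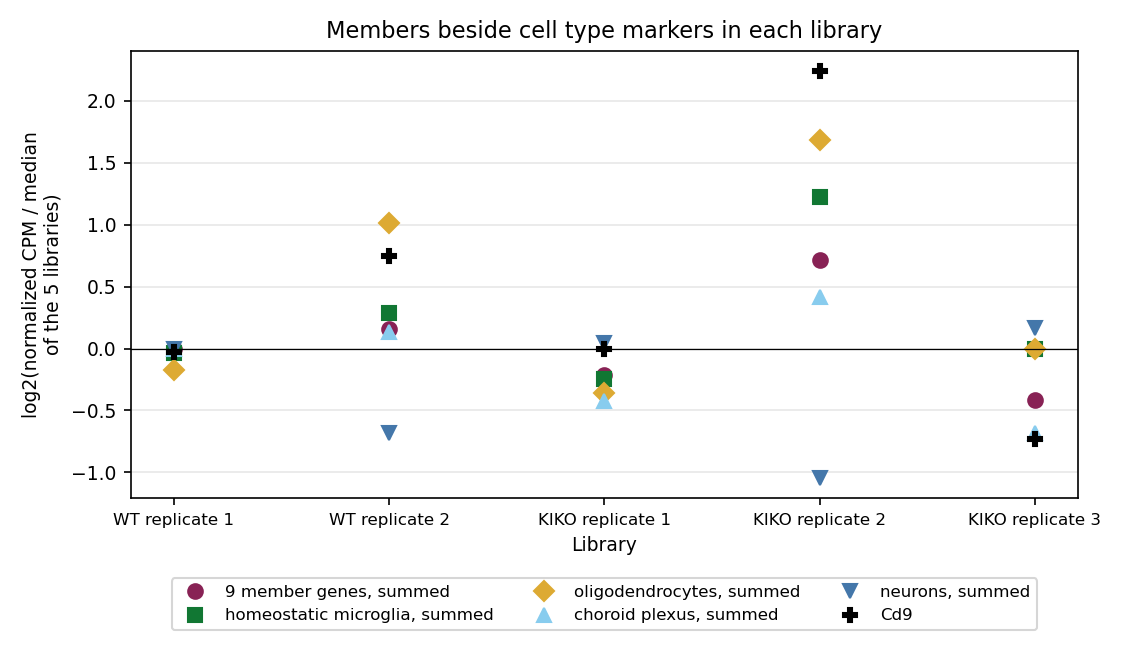
Summed normalized CPM of the members and of marker lists, and the normalized CPM of *Cd9*, in each library, as log2 of the ratio to the median of the 5 libraries. In KIKO replicate 2, *Cd9* lies 2.24, oligodendrocyte markers 1.69, homeostatic microglia genes 1.22 and the members 0.72 above the median, and neuronal markers lie at −1.05.

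For *Itgax*, the markers of dendritic cells were considered, and 2 of the 8 (*Xcr1* and *Clec9a*) had 0 counts in every library. *Zbtb46*, which endothelial cells also express, made up most of their sum of 140.5 and 133.5 normalized CPM in WT and 100.2, 152.2 and 101.5 in KIKO mice. It was the single marker of this list with enough counts to be tested, and it did not pass the thresholds with or without KIKO replicate 2. *Zbtb46* itself had 134.5 and 118.3 normalized CPM in WT and 89.1, 115.9 and 89.3 in KIKO replicates 1, 2 and 3. All KIKO libraries were thus below both WT libraries, as for *Itgax* and for 8.51% of all genes tested. The log2 fold change of *Zbtb46* was −0.36 (standard error 0.35), with an unadjusted p of 0.326 and an adjusted p of 1 in edgeR. *Flt3*, with too few counts to be tested, went the other way, with all KIKO libraries above both WT libraries. It had 0 and 6 counts in WT and 8, 21 and 7 counts in KIKO mice. The part of dendritic cells in the level of *Itgax* was not tested. For *Cst7*, which cytotoxic lymphocytes also express, none of the 7 markers of NK and T cells had enough counts to be tested, *Ncr1* and *Cd3e* had 0 counts in every library, and the list summed to at most 6.83 normalized CPM. Its most abundant gene was *Gzma*, with at most 4 counts in a library, followed by *Nkg7*.

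Among the monocyte and neutrophil markers, *Ly6c2*, *Ly6g* and *Plac8* had 0 counts in every library. The sum of these 7 genes was 16.9 and 33.4 normalized CPM in WT and 99.4, 32.4 and 36.5 in KIKO replicates 1, 2 and 3, with *S100a9* and *S100a8*, which encode calprotectin, the most abundant and at 56.8 and 33.9 in KIKO replicate 1. Without KIKO replicate 2, *S100a9* passed the thresholds, with a log2 fold change of 2.25 and an adjusted p of 0.209 in edgeR. KIKO replicate 1, the highest library in this sum, was not the highest for any member. The 8 markers of border-associated macrophages, which also express several members, summed to 263.0 and 334.5 normalized CPM in WT and 286.3, 453.6 and 263.8 in KIKO mice. Their most abundant gene was *Stab1*, a scavenger receptor. *Pf4*, a chemokine, was at 160.7 normalized CPM in KIKO replicate 2 and at most 59.8 in the other libraries. KIKO replicate 2 was the highest library for 3 of the 8 markers. It was the lowest for *Lyve1* (16.2), *Cbr2* (16.2) and *Ms4a7* (0), genes named after their values were seen. The part of these cells in the levels of the members was not tested.

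In the other marker lists, 2 genes passed the thresholds. *Gfap*, an intermediate filament of astrocytes, had 19.9 and 9.86 normalized CPM in WT and 30.0, 44.8 and 36.5 in KIKO replicates 1, 2 and 3, a log2 fold change of 1.32 with an unadjusted p of 0.04 and an adjusted p of 1 in edgeR. It was the 1 of 4 tested astrocyte markers that passed, and *Slc1a3* and *Slc1a2*, the most abundant of the 6 listed, did not. *Kdr*, a receptor for VEGF in endothelial cells, had 70.7 and 49.3 normalized CPM in WT and 27.6, 6.96 and 30.4 in the KIKO libraries, or −1.47 on the log2 scale with an unadjusted p of 0.0426 and an adjusted p of 1 in edgeR. Of the 6 endothelial markers it was the only one past the thresholds, with *Flt1* and *Pecam1* the most abundant. *Gfap* (1.17) and *Kdr* (−1.05) were again the only markers of their lists past the thresholds without KIKO replicate 2. None of the 3 tested fibroblast markers, led by *Dcn* and *Col1a2*, and none of the 6 markers of the choroid plexus, led by *Ttr* and *Clic6*, passed with all libraries. The markers of the choroid plexus summed to 10680 and 11740 normalized CPM in WT and 7948, 14240 and 6648 in KIKO mice. *Ttr* made up nearly all of this sum, which was again highest in KIKO replicate 2. KIKO replicate 2 was the highest library for 4 of the 6 markers. Without that library, *Folr1* (−1.43), *Kl* (−1.15) and *Clic6* (−1.004) passed in the lower direction, and none of the 2 fibroblast markers and 7 markers of border-associated macrophages then tested passed. *Mog*, *Syt1*, *Calb1*, *Folr1*, *Kl* and *P2ry12* were named after their values were seen. The part of all these cells in the levels of the members was not tested.

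Of 22 other genes of the programme, 19 could be tested and none passed the thresholds in either direction, and none had an unadjusted p under 0.05 in edgeR or in DESeq2. Their median log2 fold change was −0.11, with 8 above and 11 below 0. *Fth1*, the ferritin heavy chain, had 2025 and 4151 normalized CPM in WT and 1824, 5858 and 1750 in KIKO replicates 1, 2 and 3. *Ctsd*, a lysosomal protease, had 1770 and 2179 in WT and 1624, 2045 and 1820 in KIKO mice, and varied far less. In *Apoe*, an apolipoprotein and ligand of TREM2, and in *Axl*, a receptor for dying cells, all KIKO libraries were below both WT libraries. In *Npc2* and *Cadm1* they were above, and all these genes were named after their values were seen. These were 2 of the 19 genes in each direction, beside 8.51% of all genes below and 8.2% above. *Apoe* had 1555 and 1810 normalized CPM in the WT libraries and 1199, 1358 and 1303 in the KIKO libraries. This was −0.39 on the log2 scale, with a standard error of 0.39.

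Without KIKO replicate 2, 17 of these 19 genes had a log2 fold change below 0, and 4 passed the thresholds in the lower direction, as did 3.51% of all genes. In that fit 3 markers of the choroid plexus and 2 of oligodendrocytes passed in the same direction, as given above. The 4 genes of the programme were *Csf1*, a ligand of the receptor *Csf1r* (−1.23), *Lyz2*, a lysozyme of myeloid cells (−0.98), *Lgals3*, a galectin (−0.87), and *Fth1* (−0.79), and the lowest adjusted p among them was 0.209 (*Csf1*) in edgeR. *Csf1* had 157.4 and 175.2 normalized CPM in WT and 88.3, 199.4 and 52.8 in KIKO replicates 1, 2 and 3. As with *Tyrobp*, KIKO replicate 2 alone was above the WT libraries. The 3 genes that could not be tested for lack of counts were *Gpnmb*, *Ch25h* and *Lilrb4a*.

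Of 17 genes of signalling by TREM2 and TYROBP, 15 could be tested and none passed the thresholds in either direction, with none at an unadjusted p under 0.05 in edgeR or in DESeq2. Their median log2 fold change was 0.11, with 9 above and 6 below 0. *Syk*, the kinase that binds the phosphorylated adaptor, had 37.9 and 34.1 normalized CPM in WT and 19.7, 122.9 and 30.4 in KIKO replicates 1, 2 and 3. Again KIKO replicate 2 alone was above the WT libraries, as it was for *Grb2*, an adaptor at 265.8 normalized CPM in that library and at most 152.4 in the others. *Ptpn6*, the phosphatase SHP-1 that opposes such signals, went the other way, with 65.7 and 53.9 normalized CPM in WT and 35.5, 10.8 and 37.5 in the KIKO libraries. The fold on the log2 scale was −1.10 (standard error 0.56, unadjusted p of 0.0847 and adjusted p of 1 in edgeR), and with the replicate number as a block it passed the thresholds. *Ptpn6*, *Clu* and *Vav1* were the 3 of 15 tested genes of this list with all KIKO libraries below both WT libraries, beside 8.51% of all genes. *Ptpn6*, *Vav1* and *Syk* were named after their values were seen, and the exons of *Ptpn6* overlap *Gm20531* on the opposite strand. Without KIKO replicate 2, *Malt1*, part of a complex that activates NF-kB, was the one gene of this list past the thresholds, with a log2 fold change of 0.86. In that fit, 11 of the 15 genes were below 0 and their median was −0.25.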

How the data were processed

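RNA sequencing libraries of cerebellum from WT and KIKO mice were analysed. By the study's methods, Trimmomatic was used for trimming, HISAT2 for alignment (mm10) and featureCounts for counting. The gene annotation, strand setting and handling of multi-mapping reads are not given in the sources used here. The main table deposited by the authors holds raw counts. A second deposited table holds log2 values, from which log2(count / size factor + 1) returned every count within 0.01. Columns were matched to samples by name. In each table, 2 columns that match no sample label were not used. Nothing in the labels says that replicates are separate animals, so p-values measure the spread between these libraries.

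Symbols and coordinates came from GENCODE M21 (GRCm38) and matched 31011 of 31053 identifiers. Tests used edgeR 4.0.16 under R 4.3.3: filterByExpr (minimum count 10, minimum total 15), which left 10889 genes with 98.6% to 98.94% of the counts, TMM factors of 0.9712 to 1.0568, and the quasi-likelihood test, two-sided, with Benjamini-Hochberg adjustment. The common coefficient of variation was 0.468, and 0.238 without KIKO replicate 2. Standard errors are the log2 fold change divided by the root of the F statistic. The fit was tested on simulated data. Alternatives were DESeq2 1.42.0, limma 3.58.1 with trend on the log2 values, other scalings and filters, a replicate block and leaving out each library. The study used DESeq2 and the same threshold values.

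The members and the lists were chosen with earlier results of these data known. Genes named were all members, of each other list those past the thresholds and the 2 with the highest mean level, and the 3 nearest profiles of *Trem2* and *Tyrobp*. Some genes that this rule names, and a check of the genotype labels, are not reported here.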

Additional observations from a re-analysis of the deposited data

How the results depend on the processing

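None of the members passed the thresholds in 12 of 13 alternatives. The exception was the filter of at least 10 counts in every library, with 1 member (*Itgax*), which left *Spp1* and *Cst7* untested. The log2 fold change stayed below 0 in all alternatives for *Itgax* (−1.07 to −0.88) and *Cd63* (−0.36 to −0.21) and above 0 for *Lgals3bp* (0.02 to 1.09). It turned for *Trem2*, *Tyrobp* and *Cst7* with library size alone (0.024, 0.056 and 0.076), for *Trem2*, *Tyrobp* and *Lpl* with the replicate block (0.165, 0.152 and 0.135), and for *Cst7* with DESeq2 (0.005) and RLE factors (0.01). When each library was left out in turn, it ranged from −0.34 to 0.18 for *Trem2*, −0.57 to 0.25 for *Tyrobp*, −0.73 to 1.10 for *Cd9*, −0.65 to 0.15 for *Lpl*, −0.083 to 1.29 for *Spp1* and −1.42 to 0.45 for *Cst7*, with the lowest value without KIKO replicate 2 in each.

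Over all genes, 131 passed the thresholds, 44 with scaling to homeostatic genes, 383 with all genes of at least 1 count, 271 with the replicate block, and 56 to 669 when a library was left out. Of the 131 genes, 78 were higher and 53 lower, compared with 96 and 40 in DESeq2 and 94 and 43 with library size alone. The balance turned with the replicate block (109 higher and 162 lower) and without KIKO replicate 2 (305 and 364). With WT reduced to 1 library, that library was assumed to vary like the KIKO libraries. Leaving out a library gave 0 to 4 other genes of the programme and 0 to 1 signalling genes past the thresholds. For signalling genes it was 2 with all genes of at least 1 count (*Adam17* and *Ptpn6*) and 1 with the replicate block (*Ptpn6*). The cause was not tested. Same-numbered libraries had deviations that correlated with r = 0.16 and 0.208, the others with the same values below 0 since deviations sum to 0 in WT, so the number is not shown to pair the mice. At this depth, *Itgax*, *Spp1* and *Cst7* rest on at most 54 counts per library.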
